A study of Bos indicus with 5 samples.

Results

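Interleukins are small secreted proteins through which leukocytes, epithelial cells and stromal cells signal to each other. Most of them act through receptors assembled from separate chains, and a shared chain, such as the common gamma chain or the signal transducer of the IL6 family, is used by several ligands. In the reproductive tract they are known for their part in the recruitment and tolerance of immune cells around insemination and early pregnancy. The genes described here are all entries of the ampulla table whose symbol is IL followed by a digit. This rule found 80 of 24616 genes. They carried 79 symbols, because IL6 names a pair of entries, and comprised 37 ligands, 36 receptor chains, 6 antagonists, decoy receptors or binding proteins, and the enzyme IL4I1, an amino acid oxidase of antigen-presenting cells.

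Libraries of the ampulla, the wide upper oviduct where fertilization takes place, came from 5 healthy multiparous Nelore cows (Bos indicus), each sequenced once. LF/LCL (n = 2) stands for a large follicle with a large corpus luteum, and SF/SCL (n = 3) for a small one of each. All cows were presynchronized with the prostaglandin analog cloprostenol (0.5 mg) and the GnRH agonist buserelin (1 µg), and on day -10 received an intravaginal device with 1 g of progesterone and 2 mg of estradiol benzoate. On that day the LF/LCL cows alone also received prostaglandin. The device was taken out 42 h (LF/LCL) or 30 h (SF/SCL) before the GnRH agonist that induced ovulation, with prostaglandin at removal and again 6 h later in both groups, and tissue was taken on day 4. By the study's methods the sequenced cows stood at the top (LF/LCL) or the bottom (SF/SCL) of a ranking of their group on follicle, corpus luteum and hormone measures, the tissue spanned the full thickness of the wall, and a further LF/LCL library was left out by the authors because it had few reads. The protocol, the follicle and the corpus luteum therefore differ together between the groups and cannot be told apart.

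Values are normalized reads, that is, reads of a gene over its library size factor, and 1 read was worth from 0.777 to 1.17 normalized reads. The libraries held from 13418278 to 19592174 reads in genes. All 6 secretory and all 11 ciliated epithelial markers exceeded the level needed for testing (a mean above 5 normalized reads). Between the groups the smooth muscle markers differed most as a list, with summed levels of 55039 to 109416 normalized reads in LF/LCL against 13929 to 37134 in SF/SCL, and SF/SCL replicate 3 was the lowest. The ciliated markers summed to 47108 to 60827 in LF/LCL against 72609.6 to 73623 in SF/SCL. The part of these tissue differences in the results below was not tested. Ratios to marker sums are given for some genes as a description only. Gene lengths for the build used were not at hand, so levels are compared between libraries and not between genes.

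Of the 80 genes, 12 had no read in any library, 22 had reads but a mean of 5 normalized reads or less, and 46 were tested. By kind, 30 of 36 receptor chains, 13 of 37 ligands and 2 of 6 antagonists, decoys and binding proteins (IL1RN and IL18BP) passed this level, which takes no account of gene length, so these counts do not rank the kinds by expression. The 12 without reads were the ligands IL3, IL5, IL9, IL13, IL17 (the table's symbol for IL17A), IL20, IL21, IL36B, IL36G and IL1F10, the receptor chain IL22RA1 and the soluble IL22 antagonist IL22RA2. A count of 0 allows up to 3 reads per library, which is 0.153 to 0.224 RPM (reads per 1000000 reads in genes). As a whole the 80 genes took 833 and 921 RPM in LF/LCL against 877, 814 and 838 in SF/SCL, so the groups overlapped.

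**Figure D1:**
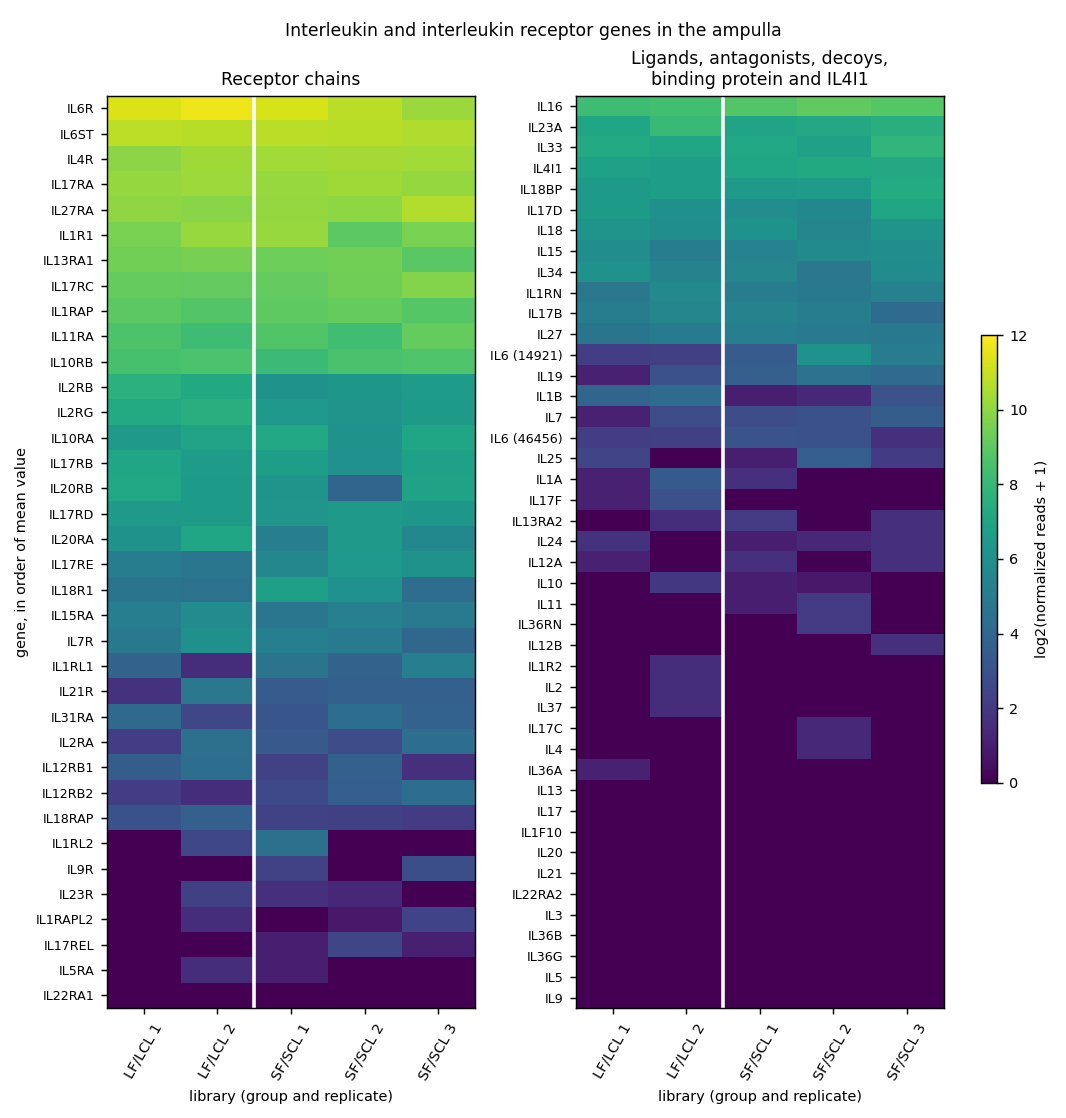
Level of all 80 interleukin and interleukin receptor entries in the 5 libraries, as log2(normalized reads + 1), receptor chains left and all others right, in order of mean value and not corrected for gene length. The number after an IL6 entry is the end of its Ensembl identifier, and the 12 entries without reads are dark in every library.

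Several ligands had few or no reads, and their values are given next to those of the chains that receive them. The genes are not ranked against each other. IL4, the signature cytokine of type-2 helper cells, had 2 reads in total and IL13 none, and their shared receptor chain IL4R had 958 and 1237 normalized reads in LF/LCL against 1281, 1325 and 1291 in SF/SCL. IL13RA1, its partner for IL13, had 697 and 739 in LF/LCL against 647, 699 and 483 in SF/SCL. IL2, the T cell growth factor, had 2 reads, both in LF/LCL replicate 2, and IL10, a suppressor of inflammation, had 5 reads in all. IL10RB, which IL10 shares with other cytokines, had 361 and 381 normalized reads in LF/LCL against 290.1, 377 and 410.0 in SF/SCL. IL11 had 5 reads in total, all in SF/SCL, and IL11RA had 305 to 567 normalized reads over the 5 libraries. The ligands that did reach testing in all families included IL15 and IL7 for lymphocyte upkeep, the alarmins IL33 and IL18, IL23A and IL27 of the IL12 family, IL17B and IL17D, IL34 (a ligand of the macrophage receptor CSF1R) and IL16.

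Interleukin genes often lie side by side on the chromosome, and in some such runs part of the members were tested and the rest were not. In the gene order of the RefSeq assembly NIAB-ARS_B.indTharparkar_mat_pri_1.0, where 77 of the 79 symbols were found, 37 of them stood in 12 runs with at most 1 other protein-coding gene between neighbours. The run of IL1 ligands (IL1A, IL1B, IL37, IL36G, IL36B, IL36RN, IL1F10 and IL1RN) had 8 members, of which only IL1B and IL1RN were tested. The run of IL1 receptors (IL1R2, IL1R1, IL1RL2, IL1RL1, IL18R1 and IL18RAP) had 6, of which 5 were tested, and the exception was the decoy receptor IL1R2 with 2 reads. In the run IL10, IL19, IL20 and IL24 only IL19 was tested, and in the run IL4, IL13 and IL5 no gene was. The neighbours IL17RC and IL17RE were both tested.

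The comparison of the groups asked which of these transcripts differed with the endocrine setting. With limma on log2(value + 1), 0 of 46 genes had an adjusted p under 0.05 (Benjamini-Hochberg over all 15815 genes tested), where the share over all genes was also 0%. The smallest adjusted p was 0.248, for IL2RG. At an unadjusted p under 0.05 there were 7 of 46 (15.2%), against 11.5% of all genes, 3 higher in LF/LCL (5.64% of all genes) and 4 lower (5.86%). The groups did not overlap in 15 of the 46 (32.6%), against 30.1% of all genes, 6 higher in LF/LCL (15% of all genes) and 9 lower (15.1%). Both shares were close to those of all genes. Their median log2 fold change was -0.03, against 0.01 over all genes, with 23 above 0 (50.8% of all genes) and 23 below (49.2%). Tested as recovered reads with edgeR (quasi-likelihood), 0 had an adjusted p under 0.05 (0% of all genes) and 7 an unadjusted one (11.7% of all genes). DESeq2 called 3 of the 46, against 2.92% of all genes: IL2RG and IL2RB were higher in LF/LCL (1.4% of all genes) and IL6 was lower (1.52%). It gave no adjusted p for 5 of the 46. The edgeR exact test called IL2RG alone, higher in LF/LCL (1.16% of all genes).

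**Figure D2:**
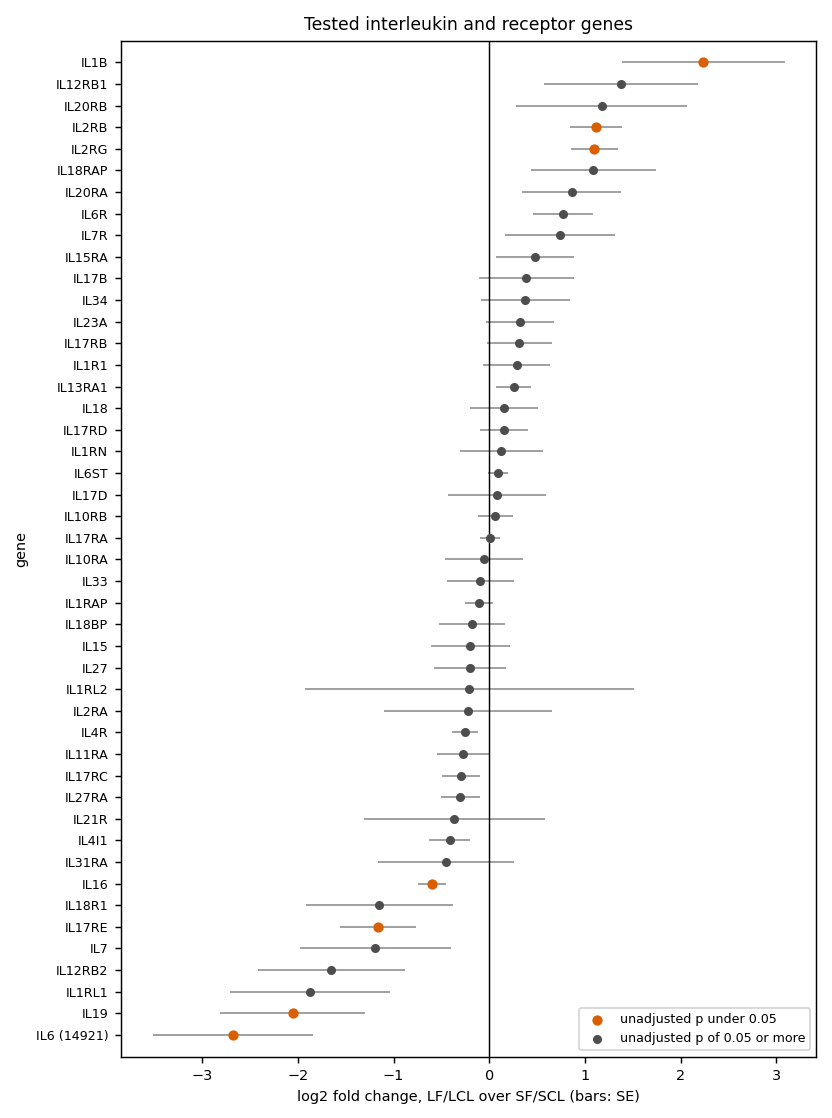
Log2 fold change of LF/LCL over SF/SCL for the 46 tested genes on the log2(value + 1) scale, with standard errors as bars and the 7 genes with an unadjusted limma p under 0.05 in orange. IL1B lies at the top with 2.24 and IL6 at the bottom with -2.68, and 23 genes lie on each side of 0.

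Among the common gamma chain receptors, the chains that give lymphocytes their response to IL2 and IL15 were higher in LF/LCL at an unadjusted p under 0.05. IL2RG, the common gamma chain itself, had 163 and 191 normalized reads in LF/LCL against 83.2, 72.3 and 91.2 in SF/SCL. Its log2 fold change was 1.10 ± 0.24 (SE, limma adjusted p = 0.248, unadjusted 0.00375). IL2RB, the chain that pairs with it for IL2 and IL15, had 201 and 155 in LF/LCL against 68.6, 80.0 and 96.6 in SF/SCL. The log2 fold change of IL2RB was 1.11 ± 0.27 (SE, limma adjusted p = 0.289, unadjusted 0.00601). In both genes each LF/LCL library was above each SF/SCL library. DESeq2 gave adjusted p-values of 0.00731 and 0.0205. IL2RG kept an unadjusted p under 0.05 without each library in turn, and IL2RB lost it only without LF/LCL replicate 1 (0.0504).

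No other tested chain of this family had an unadjusted limma p under 0.05. IL2RA, the chain that raises affinity for IL2 on activated and regulatory T cells, had 3.52 and 20.3 normalized reads in LF/LCL against 9.36, 6.22 and 19.3 in SF/SCL. IL15RA, which presents IL15, had 34.0 and 54.2 in LF/LCL against 25.0, 36.5 and 31.1 in SF/SCL. IL7R, the receptor of naive and memory T cells, had 28.1 and 64.9 against 35.4, 30.3 and 15.0, and IL21R had 2.35 and 26.1 against 10.4, 11.7 and 11.8. In all 4 the groups overlapped, and the LF/LCL libraries differed from each other more than the group means did. The log2 fold changes of IL15RA (0.48, 95% interval -0.52 to 1.48) and IL7R (0.73, -0.66 to 2.13) were above 0. Those of IL2RA (-0.23) and IL21R (-0.36) were below 0. IL4R was lower in both LF/LCL libraries than in any of SF/SCL, with a log2 fold change of -0.25 (95% interval -0.58 to 0.07). Of their ligands, IL15 had 57.5 and 31.9 in LF/LCL against 39.5, 50.5 and 60.1 in SF/SCL.

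Markers of T and NK cells were also mostly higher in LF/LCL. Of 20 entries found for T and NK cell markers 17 were tested, 16 of these were above 0 (50.8% of all genes; median log2 fold change 0.57), and with limma 6 had an unadjusted p under 0.05, all higher in LF/LCL (5.64% of all genes), and 0 an adjusted one. KLRB1 and NCR1 were too low for testing, and 1 of the GZMB entries had no reads. CD3E, a chain of the T cell receptor complex, had 262 and 329 normalized reads in LF/LCL against 165, 193 and 135 in SF/SCL. The summed level of these markers was 1776 and 1916 in LF/LCL against 1042, 1290.1 and 1184 in SF/SCL. In whole tissue, fewer cells of a type and less RNA per cell cannot be told apart. As a percent of this sum, IL2RG was 9.18 and 9.95 in LF/LCL against 5.60 to 7.98 in SF/SCL, so the groups stayed apart. IL2RB was 8.08 and 11.3 percent in LF/LCL against 6.20 to 8.16 in SF/SCL, and there the groups overlapped. Against the pan leukocyte marker sum IL2RG stayed apart (2.53 to 2.90 percent in LF/LCL against 1.46 to 2.25 in SF/SCL) and IL2RB overlapped (2.06 to 3.57 against 1.20 to 2.39). Against the smooth muscle or the macrophage and myeloid marker sums both genes overlapped between the groups. Against the secretory marker sum both stayed apart. IL2RG was 0.0989 to 0.137 percent in LF/LCL against 0.0434 to 0.0603 in SF/SCL, and IL2RB 0.111 to 0.122 against 0.0481 to 0.0628. Both were also apart against the ciliated marker sum, a gap fixed in advance because that sum was lower in both LF/LCL libraries. Pan leukocyte markers summed to 5615 and 7530.5 in LF/LCL against 3540.0 to 5713 in SF/SCL, and macrophage and myeloid markers overlapped between the groups. Of 5 tested B and plasma cell markers 0 had an unadjusted limma p under 0.05, and their sum overlapped (3787 to 4237 in LF/LCL against 1449 to 6789 in SF/SCL).

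**Figure D3:**
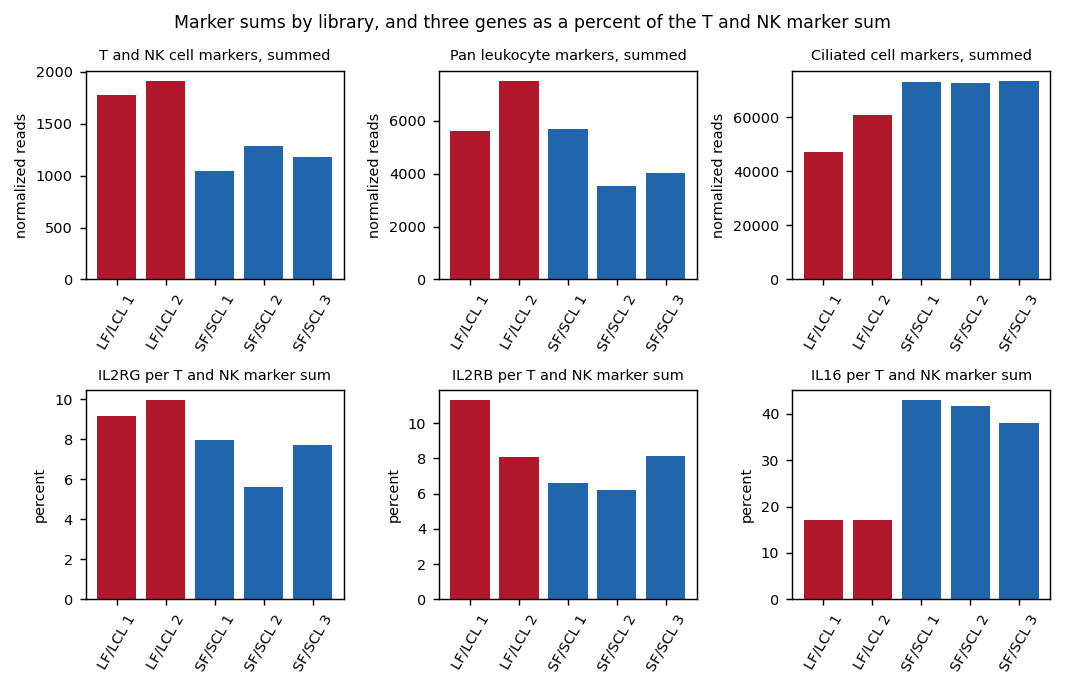
Upper row, summed normalized reads of the T and NK cell, pan leukocyte and ciliated cell markers in each library. Lower row, IL2RG, IL2RB and IL16 as a percent of the T and NK cell marker sum, where IL2RG lies above 9 percent in both LF/LCL libraries and below 8 percent in SF/SCL, and IL16 lies near 17 percent in LF/LCL and above 38 percent in SF/SCL. The gap for IL16 was fixed in advance, because IL16 was lower and the marker sum higher in LF/LCL.

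IL16 went the other way. It is made as a precursor in lymphocytes and other cells and, once cleaved, attracts cells that carry CD4. It had 304 and 327 normalized reads in LF/LCL against 447, 539 and 451 in SF/SCL, so every SF/SCL library was higher. The log2 fold change was -0.60 ± 0.15 (SE, limma adjusted p = 0.296, unadjusted 0.00667; DESeq2 adjusted p = 0.0603). Leaving out each library in turn left the unadjusted p at 0.0117 to 0.0398. Relative to the T and NK cell marker sum IL16 was 17.1 percent in both LF/LCL libraries and 38.1 to 42.9 percent in SF/SCL. This ratio had to separate the groups and adds nothing to the values above. IL16 was lower, and the marker sum higher, in both LF/LCL libraries than in any of SF/SCL. Relative to the ciliated marker sum IL16 was 0.538 to 0.645 percent in LF/LCL against 0.611 to 0.743 percent in SF/SCL, with overlap. Relative to the secretory marker sum it was 0.184 to 0.235 percent in LF/LCL against 0.293 to 0.324 percent in SF/SCL, without overlap. The groups were also apart against the pan leukocyte marker sum, and overlapped against the macrophage and myeloid marker sum. CD4 itself, a receptor for IL16, had 10.6 and 52.3 normalized reads in LF/LCL against 20.8, 20.2 and 16.1 in SF/SCL.

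In the IL6 family the groups were apart in the ligand, which was lower in LF/LCL, and in its specific receptor chain, which was higher. The tested IL6 entry (ENSBTAG00000014921) had 3.52 and 3.87 normalized reads in LF/LCL, from 3 and 4 reads, and 10.4, 69.2 and 33.3 in SF/SCL, from 10, 89 and 31 reads. The SF/SCL libraries thus differed widely among themselves, while both LF/LCL libraries were near the limit of detection. The log2 fold change was -2.68 ± 0.84 (SE, limma adjusted p = 0.345, unadjusted 0.0178), and DESeq2 gave an adjusted p of 0.0477. With LF/LCL replicate 1, LF/LCL replicate 2 or SF/SCL replicate 3 left out, the unadjusted limma p was 0.0632, 0.0563 and 0.0507. The other IL6 entry (ENSBTAG00000046456) had 3.52 and 3.87 in LF/LCL against 7.28, 6.99 and 2.15 in SF/SCL and was not tested. The entries share a symbol, and only uniquely mapped reads were counted, so reads between them may be split or lost and both values are uncertain.

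IL6R, the chain that binds IL6, had 2642 and 3319 normalized reads in LF/LCL against 2508, 1753 and 1186 in SF/SCL. There was no overlap, but SF/SCL replicate 1 lay close to LF/LCL replicate 1. The log2 fold change of IL6R was 0.77 ± 0.31 (SE, limma adjusted p = 0.436, unadjusted 0.0504), and without 1 library it ran from 0.50 (without SF/SCL replicate 3, unadjusted p 0.0710) to 1.04 (without SF/SCL replicate 1, unadjusted p 0.00662). The other 3 such fits had unadjusted p-values of 0.0726 to 0.201. As a percent of the ciliated marker sum IL6R was 5.46 to 5.61 in LF/LCL and 1.61 to 3.43 in SF/SCL. That gap was fixed in advance, because IL6R was higher, and the ciliated sum lower, in both LF/LCL libraries than in any of SF/SCL. As a percent of the secretory, smooth muscle or macrophage marker sums the groups overlapped. IL6ST, the signalling chain shared by the whole family, had 1786 and 1698 in LF/LCL against 1724, 1697 and 1506 in SF/SCL. Its log2 fold change was 0.09 with a 95% interval of -0.17 to 0.35. The related cytokine LIF, which also signals through IL6ST, had no reads in LF/LCL and 1.04, 8.55 and 10.7 normalized reads in SF/SCL, and was not tested. Its receptor LIFR had 677 and 624 in LF/LCL against 671, 771 and 599 in SF/SCL.

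In the IL17 family a single receptor chain, lower in LF/LCL, had an unadjusted p under 0.05. IL17RE, an epithelial receptor chain for IL17C, had 31.7 and 25.2 normalized reads in LF/LCL against 45.7, 83.2 and 70.8 in SF/SCL. Its log2 fold change was -1.17 ± 0.40 (SE, limma adjusted p = 0.368, unadjusted 0.0250). Leaving out LF/LCL replicate 2, SF/SCL replicate 2 or SF/SCL replicate 3 gave unadjusted p-values of 0.104, 0.0790 and 0.0667. Its ligand IL17C had 2 reads, both in SF/SCL replicate 2. As a percent of the ciliated marker sum IL17RE overlapped between the groups (0.0414 to 0.0672 in LF/LCL against 0.0626 to 0.115 in SF/SCL), and as a percent of the secretory marker sum it did not (0.0181 to 0.0192 and 0.0331 to 0.05).

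IL17RA, the chain common to the IL17 receptors, was even between the groups, with 1109 and 1209 normalized reads in LF/LCL against 1129, 1233 and 1106 in SF/SCL. Its log2 fold change was 0.00 with a 95% interval of -0.26 to 0.26. IL17RC, the neighbour of IL17RE and the partner of IL17RA for IL17A and IL17F, had 573 and 556 in LF/LCL against 556, 683 and 871 in SF/SCL. IL17RD, a modulator of growth factor signals, differed little (88.0 and 91.0 against 74.9, 86.3 and 80.5), although its groups did not overlap. Among the ligands, IL17D had 91.5 and 63.9 in LF/LCL against 58.2, 47.4 and 137 in SF/SCL, IL17B had 31.7 and 43.6 against 40.5, 31.9 and 17.2, and IL17F had 1 and 7 reads in LF/LCL and none in SF/SCL.

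IL19, a member of the IL10 family that acts on epithelia, was lower in LF/LCL at an unadjusted p under 0.05. It had 1.17 and 6.78 normalized reads in LF/LCL, from 1 and 7 reads, and 11.4, 21.0 and 17.2 in SF/SCL, from 11, 27 and 16 reads. The log2 fold change was -2.05 ± 0.76 (SE, limma adjusted p = 0.396, unadjusted 0.0342), and without LF/LCL replicate 1 it was -1.13 with an unadjusted p of 0.176. The p also exceeded 0.05 when SF/SCL replicate 2 (0.0928) or replicate 3 (0.0801) was left out. The chains of its receptor, IL20RA and IL20RB, overlapped between the groups. IL20RA had 69.2 and 136 in LF/LCL against 34.3, 89.4 and 48.3 in SF/SCL, and IL20RB had 143 and 92.0 in LF/LCL against 73.8, 14.0 and 119 in SF/SCL. The spread of IL20RB within SF/SCL was wide, and SF/SCL replicate 2 was lowest. IL10RA had 85.6 and 129.7 in LF/LCL against 145, 68.4 and 133 in SF/SCL.

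In the IL1 family the inflammatory ligand IL1B was above every SF/SCL library in both LF/LCL libraries, at low counts. It had 14.1 and 17.4 normalized reads in LF/LCL, from 12 and 18 reads, and 1.04, 1.55 and 7.51 in SF/SCL, from 1, 2 and 7 reads. The log2 fold change was 2.24 ± 0.85 (SE, limma adjusted p = 0.414, unadjusted 0.0386). Only 1 of the 5 fits that left out a library kept the unadjusted p under 0.05, the fit without SF/SCL replicate 3 (0.0120), and the others gave 0.0824 to 0.146. As a percent of the macrophage and myeloid marker sum IL1B was 0.235 to 0.453 in LF/LCL and 0.0198 to 0.161 in SF/SCL, without overlap, but against the smooth muscle marker sum it overlapped. IL1A had 1 and 10 reads in LF/LCL against 2, 0 and 0 in SF/SCL. S100A8, a granulocyte and myeloid marker, had 38.7 and 29.0 normalized reads in LF/LCL against 1.04, 0 and 2.15 in SF/SCL, while the granulocyte receptor CXCR2 was near zero in both groups. Of 11 granulocyte and mast cell entries found 5 were tested, and all 5 were above 0 (50.8% of all genes). With limma 1 had an unadjusted p under 0.05, higher in LF/LCL (5.64% of all genes). The list sum overlapped between the groups (3920 to 5039 in LF/LCL against 3557 to 4473 in SF/SCL). The antagonist IL1RN overlapped, with 25.8 and 48.4 against 32.2, 28 and 37.6.

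The receptors of the IL1 family did not share a direction. IL1R1, the signalling receptor, had 771 and 1116 normalized reads in LF/LCL against 1123, 509 and 765 in SF/SCL, and its accessory chain IL1RAP had 510.2 and 444 against 514, 574 and 459. IL1RL1, the receptor of IL33, had 12.9 and 1.94 in LF/LCL against 23.9, 13.2 and 35.4 in SF/SCL. For IL1RL1 the log2 fold change was -1.88 ± 0.83 (SE, limma adjusted p = 0.464, unadjusted 0.0647), and LF/LCL replicate 1 lay just under SF/SCL replicate 2. This value rested on single LF/LCL libraries, being -0.75 (unadjusted p 0.359) without replicate 2 and -2.998 (unadjusted p 0.0139) without replicate 1. IL33 itself had 163 and 134 in LF/LCL against 142, 114 and 240.4 in SF/SCL. The chains of the IL18 receptor differed in direction. IL18R1 had 23.5 and 22.3 in LF/LCL against 112, 66.8 and 18.2 in SF/SCL, with overlap, whereas IL18RAP had 7.04 and 11.6 in LF/LCL against 4.16, 3.89 and 3.22 in SF/SCL, without overlap (log2 fold change 1.09 ± 0.65, SE, limma adjusted p = 0.580). Neither had an unadjusted p under 0.05, and IL18 and its binding protein IL18BP overlapped between the groups. IL1RL2, a receptor for IL36 ligands, had 20.8 in SF/SCL replicate 1, 4.84 in LF/LCL replicate 2 and no reads in the other libraries.

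In the IL12 family, IL12RB2, the signalling chain of the IL12 receptor on type-1 helper and NK cells, had 3.52 and 1.94 normalized reads in LF/LCL against 5.20, 10.9 and 19.3 in SF/SCL, from 3 and 2 reads against 5, 14 and 18. Its log2 fold change was -1.65 ± 0.77 (SE, limma adjusted p = 0.477, unadjusted 0.0738). Without SF/SCL replicate 1, 2 or 3 the unadjusted limma p was 0.0436, 0.140 and 0.200. Without LF/LCL replicate 1 or 2 the log2 fold change was -1.96 and -1.34. The partner chain IL12RB1 had 10.6 and 19.4 in LF/LCL against 4.16, 11.7 and 2.15 in SF/SCL, with overlap. IL27RA had 1019 and 929 in LF/LCL against 1088, 1010.3 and 1572 in SF/SCL. IL23A, a subunit of IL23, had 131 and 274 in LF/LCL against 128, 151 and 181 in SF/SCL, and the subunit IL12B, with which it pairs, had 2 reads. IL7, which maintains lymphocytes, had 1.17 and 5.81 in LF/LCL against 6.24, 6.99 and 10.7 in SF/SCL, and its log2 fold change of -1.19 ± 0.79 (SE) had a limma adjusted p of 0.614. It was -0.37 without LF/LCL replicate 1, the library with 1 read, and -2.02 without LF/LCL replicate 2. IL4I1 had 115 and 105 in LF/LCL against 134, 154 and 152 in SF/SCL, apart but with an unadjusted p of 0.0993.

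**Figure D4:**
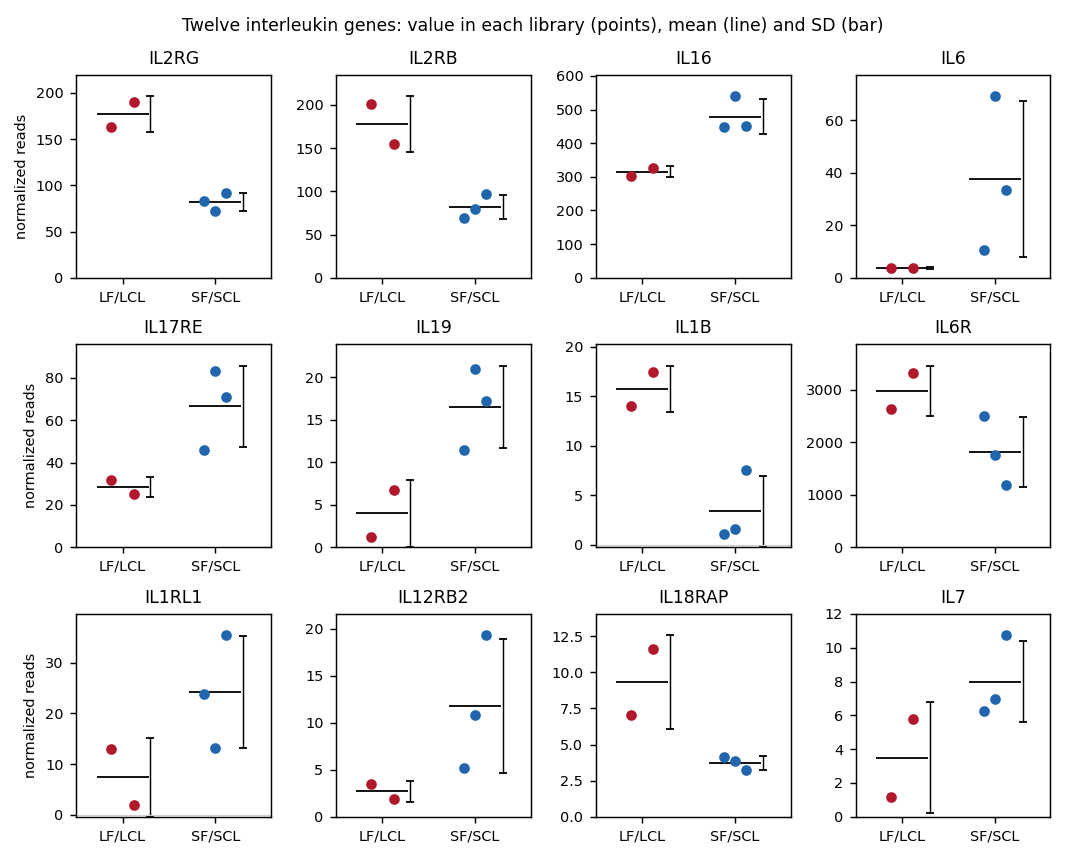
Normalized reads in each library (points), group mean (line) and SD (bar, n = 2 and n = 3) for the 12 tested genes with an unadjusted limma p under 0.05, or with no overlap and a log2 fold change of at least 0.5 in either direction. IL2RG, IL2RB, IL1B, IL6R and IL18RAP are higher in LF/LCL and the other 7 are lower, and IL6, IL12RB2 and IL1RL1 show the wide spread within SF/SCL.

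Genes outside the rule that carry interleukin signals were read from 5 lists. Of 62 tested entries, 4 had an unadjusted p under 0.05 (6.45%, against 11.5% of all genes) and 0 an adjusted one with limma, and their median log2 fold change was 0.03. IRAK4, the kinase that the IL1 and IL18 receptors recruit, had 752 and 681 normalized reads in LF/LCL against 462, 443 and 558 in SF/SCL (log2 fold change 0.56 ± 0.15, SE, limma adjusted p = 0.306). STAT2 was the only JAK or STAT gene among the 4, with 1564 and 2231 in LF/LCL against 1531, 1151 and 1357 in SF/SCL. Lower in LF/LCL were TRAF3IP2, the adapter of the IL17 receptors, with 1017 and 986 in LF/LCL against 1183, 1146 and 1205 in SF/SCL, and TRAF3, a brake on that pathway, with 240.4 and 303 against 364, 392 and 332. JAK3, the kinase bound to the common gamma chain, had 191 and 336 in LF/LCL against 272, 105 and 96.6 in SF/SCL, so unlike IL2RG it overlapped. Of the 12 SOCS and other inhibitor genes and the 8 inflammasome and processing genes, 0 had an unadjusted p under 0.05, and of the 13 tested partner chains and ligands also 0.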

How the data were processed

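The authors cleaned the read pairs with seqyClean, aligned them with TopHat 2.0.8 and Bowtie2 2.1.0 to the masked UMD cattle assembly, counted uniquely mapped reads per Ensembl gene with HTSeq 0.5.4p2 (strand setting not given in the sources used here) and divided the counts by DESeq 1.12.1 size factors. The deposited values are this normalized signal, from which whole reads were recovered for 100% of nonzero values (tolerance 0.01). Genes with a mean above 5 (15815) were tested with limma 3.58.1 (lmFit and eBayes, trend and robust, pseudocount 1, two-sided, R 4.3.3), and edgeR 4.0.16 and DESeq2 1.42.0 were run on the recovered reads. A fold change is LF/LCL over SF/SCL on the log2(value + 1) scale, which understates changes of low genes. The limma, edgeR, DESeq2 and limma-voom fits were tested on simulated reads with known changes.

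Members given with a fold change and its SE had an unadjusted p under 0.05, or no overlap and a log2 fold change of 0.5 or more. The rule for naming took the 2 with the highest mean value per subfamily and role, partner chains, shared symbols and genes without reads. It was not followed in full: IL18, IL27 and IL24, for example, were named without values, and IL5RA was left out. Beyond that rule, further members were chosen after their values were seen. IL4R, IL15RA, IL7R, IL6ST and IL17RA were also given with an interval. The genes and lists were chosen with earlier results of these data known, and the match of IL17 to IL17A was made on seeing the table. These intervals come from the limma fit and rest on the spread between libraries within the groups. Limits from counts cover counting error only. No sequences or coordinates are given.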

Additional observations from a re-analysis of the deposited data

How the results depend on the processing

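No paired analysis was possible because each library came from a different cow and the groups shared no animal. The replicate numbers only follow the order of the samples. The 0 members with an adjusted p under 0.05 became 3 with DESeq2 (2 higher and 1 lower in LF/LCL) and 1 with the edgeR exact test. The cause was not tested. The count was 0 with the quasi-likelihood test, limma-voom, limma without trend and robust estimation, both other pseudocounts, both other filters, both other scalings and without each library in turn (from 0 to 0). The 7 with an unadjusted p under 0.05 ran from 5 to 9 without 1 library each (10.9% to 19.6% of members, against 7.8% to 10.5% of all genes), and were 10 with plain limma (21.7% against 10.5%) and 10 of 68 without a filter (14.7% against 10.5%). The 15 without overlap ran from 18 to 31 without 1 library each (39.1% to 67.4% of members, against 41.2% to 57.1% of all genes), since fewer values leave less room to overlap. The median log2 fold change of -0.03 ran from -0.124 (without SF/SCL replicate 2) to 0.088 (without SF/SCL replicate 3). The 12 interleukin genes given with a fold change and its SE kept their direction in each of the alternatives in which they were tested. For IRAK4 the alternatives were not compared, and DESeq2 gave an adjusted p of 0.0868. IL6 was not tested when the mean had to exceed the SD. A fit without an LF/LCL library assumes that the lone sample varies like the SF/SCL libraries. IL6, IL19, IL1B, IL1RL1, IL12RB2, IL18RAP and IL7 had few reads (at most 89 in a library), and their standard errors were 0.65 to 0.85. The part of the low counts in these standard errors was not tested.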
